A study of Mus musculus with 6 samples.

Results

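The cytosolic ribosome is built from a large and a small subunit, and its protein parts are encoded by the Rpl and Rps genes. These genes were examined in RNA-seq data of biliary epithelial cells, the cells that line the bile ducts, which had been sorted from liver. The mice were wild-type C57BL/6 females, either non-pregnant (3 libraries) or at day 8 post coitum of pregnancy (dpc8, 3 libraries), with no other treatment named. The labels name neither the age of the mice nor the antibodies of the sorting gate, beyond a block of Fc receptors. Nor do the labels tie each library to its own animal, and p-values therefore reflect the scatter between libraries, which may be technical. Members were the genes of the deposited table whose symbol is Rpl or Rps with a number and, where present, the letters a, x or l, together with Rplp0, Rplp1, Rplp2 and Rpsa. This gave 81 of 21700 genes, 50 of the large and 31 of the small subunit, all annotated as protein-coding. Of these, 79 had a mean of at least 1 FPKM and were tested (48 large, 31 small), and the 2 that were not, Rpl10l and Rpl39l, are described with the paralogs.

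Ribosomal proteins are made in nearly equal numbers for each ribosome, and most are needed for the subunit to assemble. Their mRNAs are among the most abundant of a growing cell. They carry a run of pyrimidines at their capped end, the 5′ terminal oligopyrimidine tract, through which the kinase complex mTORC1 and the RNA-binding protein LARP1 set their translation. Translation itself was not measured here, only the amount of RNA.

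Runs of pyrimidines were frequent near the annotated gene starts of the family. RefSeq promoter sequences (build GRCm38.p6, the same assembly as mm10) were found for 61 of the 81 genes, with 73 starts among them. A run of at least 8 letters C or T, read on the gene's strand from 30 bases before to 50 after the start, was present in 52 of the 73 (71.2%), against 26.35% of the starts of all tested genes and 29% of all promoters in the table. The stretches below, each read 5′ to 3′, show such a run in 5 of the 6 members with the smallest p and in Rpl4, the third most abundant member. The longest run is in capitals. Only starts with such a run were chosen for printing, and of several starts of a gene the one with the longest run. Rpl23a, the other of the 6, had no such start among the sequences found.
Rps25: ccaccgggCTTCCTTTTTTTCCgacatctt
Rpl36al: gctctgttcgTCCCTTTCCTgttcggcgcg
Rpl14: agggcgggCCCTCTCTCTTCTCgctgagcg
Rpl5: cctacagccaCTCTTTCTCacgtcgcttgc
Rps18: tcacttccgCTCTCTCTTCCacaggaggcc
Rpl4: agcgtggCCTTCTCCTCTCCCCgtcatggt
In the same order they lie at chr9:44407684-44407713 (plus strand), chr12:69184020-69184049 (minus), chr9:120571501-120571530 (plus), chr5:107900498-107900527 (plus), chr17:33955647-33955676 (minus) and chr9:64173406-64173435 (plus). Counted from the annotated start as base 1, with negative numbers before it, the runs begin at -22 (Rps25), 29 (Rpl36al), -8 (Rpl14), -20 (Rpl5), -2 (Rps18) and 27 (Rpl4). Where transcription begins in these cells was not measured, so these runs are not shown to be the tract at the capped end. The motif CCGGAAG, a core of the ETS transcription factors, was found on either strand, from 250 bases before to 50 after the start, in 35.6% of the members' promoters, 17.75% of those of all tested genes and 8.86% of all promoters. The letters AAGATGG, the core of the YY1 motif, were found in 15.1%, 7.18% and 6.34%. The letters TATAA were found in 23.3%, 13.1% and 24.9%, so the members' share lay above that of all tested genes and slightly below that of all promoters. These are matches of letters, not measured binding sites.

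The libraries held between 25047887 and 35083751 fragments, recovered from the deposited values and the exon lengths of GENCODE vM21. In all 6 the biliary markers (8 genes) had the largest sum of the marker lists named here. They summed to 4896 to 6196 FPKM without pregnancy and 6645 to 7139 FPKM at dpc8. Such sums do not measure the purity of the sort, and hepatocyte transcripts were present in every library. Macrophage markers (11 genes) summed to 57.1 to 89.4 and 105 to 171 FPKM. Of the 9 tested, 3 rose in pregnancy by limma, against 0.0613% of all tested genes. Hepatocyte markers (8 genes) summed to 2392 to 2967 and 2368 to 2672 FPKM, and endothelial markers (7 genes) to 13.5 to 196 and 15.1 to 22.04 FPKM. In the biliary, hepatocyte, endothelial, stellate, lymphocyte and proliferation lists 0 genes rose or fell by limma. Of the 4 tested proliferation markers 4 lay above 0 and 0 below, with a median log2 change of 0.68. For 3 of them the groups did not overlap, against 9.9% of all tested genes that were higher without overlap. Non-pregnant library 2 stood apart in the endothelial markers, at 196 FPKM against 13.5 to 27.3 FPKM in the other 5 libraries. No gene of these lists was at 0 in all libraries. Fewer cells of a type and less RNA per cell cannot be told apart in such bulk samples.

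Ribosomal protein mRNAs stood at a high level in every library. The tested members had a median of 75.4 FPKM, above 96.5% of the 11412 tested genes, whose median was 8.53 FPKM. A mean of at least 100 FPKM was reached by 30 of the 79, 18 large and 12 small, against 2.34% of all tested genes. As a share of all fragments the family held 1.38%, 1.36% and 1.59% in the non-pregnant libraries numbered 1, 2 and 3, and 1.43%, 1.42% and 1.33% in the pregnant libraries in the same order. The 95% Wilson interval of pregnant library 1, the widest of the 6, ran from 1.42% to 1.43%; these intervals cover counting error only. Non-pregnant library 3 was the highest of the 6 and pregnant library 3 the lowest, and the groups overlapped.

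Summed over all 81 genes, the family stood at 8455, 8204 and 9642 FPKM in the non-pregnant libraries and at 8810, 8616 and 8036 FPKM in the pregnant ones. The group means were 8767 ± 768 and 8487 ± 403 FPKM (SD, n = 3 each), a ratio of 0.968. That difference is smaller than the SD of either group. Without non-pregnant library 3 the non-pregnant mean was 8330 ± 177 FPKM (SD, n = 2) and the ratio turned to 1.02.

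**Figure D1:**
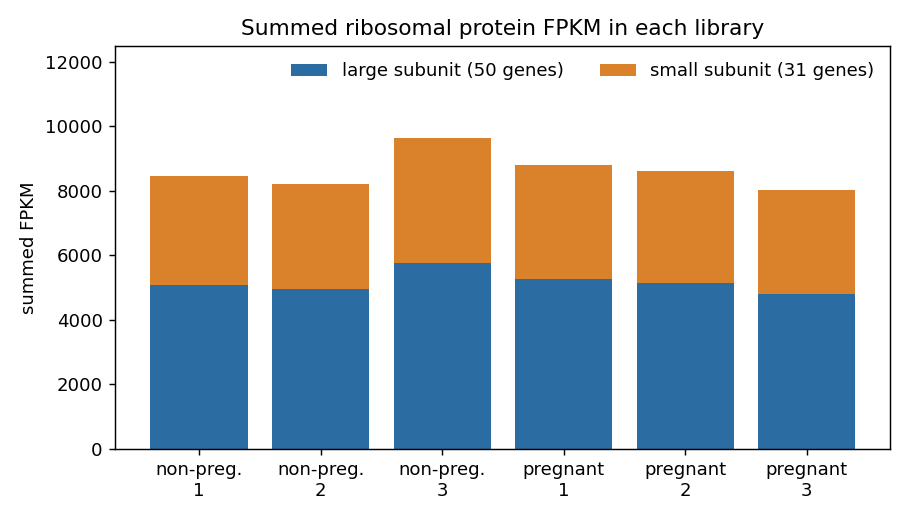
Stacked bars of the summed FPKM (y axis) of the 50 large subunit and 31 small subunit genes in each of the 6 libraries (x axis). Non-pregnant library 3 is the tallest bar, at 9642 FPKM, and pregnant library 3 the shortest, at 8036 FPKM.

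The subunits moved together. Large subunit genes summed to 5071, 4954 and 5776 FPKM without pregnancy and 5255, 5134 and 4800 FPKM at dpc8. Small subunit genes summed to 3384, 3251 and 3866 FPKM and to 3555, 3483 and 3236 FPKM. In both, non-pregnant library 3 was the highest and pregnant library 3 the lowest. The ratio of the large to the small sum was 1.499, 1.52 and 1.49 without pregnancy and 1.48, 1.47 and 1.48 at dpc8. These ratios did not overlap between the groups, with means of 1.51 ± 0.0162 and 1.48 ± 0.00452 (SD, n = 3 each), and the difference was not tested.

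No ribosomal protein gene passed the test between the groups. Of the 79 tested, 0 rose and 0 fell (limma adjusted p from 0.377 to 0.994), where 0.0613% of all tested genes rose and 0.0263% fell (0.0876% together). At an unadjusted p under 0.05 there were 0 members, against 13.4% of all tested genes, and limma-voom on the recovered fragments called 0. Leaving out non-pregnant library 2 called 1.17% of all genes and 0 members, and setting the members' median equal in all libraries called 0.0701% and 0 members. Changes were computed as pregnant minus non-pregnant on the log2(FPKM + 1) scale, which understates those of low genes, and lay between -0.23 and 0.21. Their 95% intervals, not adjusted for the number of genes, all lay within 1.5-fold either way, which held for 85.6% of all tested genes. A change inside a member's own interval is not excluded by these data, and the outermost bounds were -0.48 and 0.57.

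Most members lay slightly below 0 without passing the test. There were 63 of 79 below 0 (40 of 48 large and 23 of 31 small), against 55.2% of all tested genes, with a median log2 change of -0.06 (-0.06 large, -0.05 small) and of -0.02 over all tested genes. Without non-pregnant library 3, 38 of 79 lay below 0, against 53.0% of all tested genes, and the members' median was 0.0029. Without pregnant library 3, 50 of 79 lay below 0, against 55.6% of all tested genes, and the members' median was -0.03. The median SE of a member's change was 0.09. The groups did not overlap for 7 members that were lower in pregnancy (8.86%), a share below the 12.2% of all tested genes, and for 0 that were higher, against 9.9%.

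**Figure D2:**
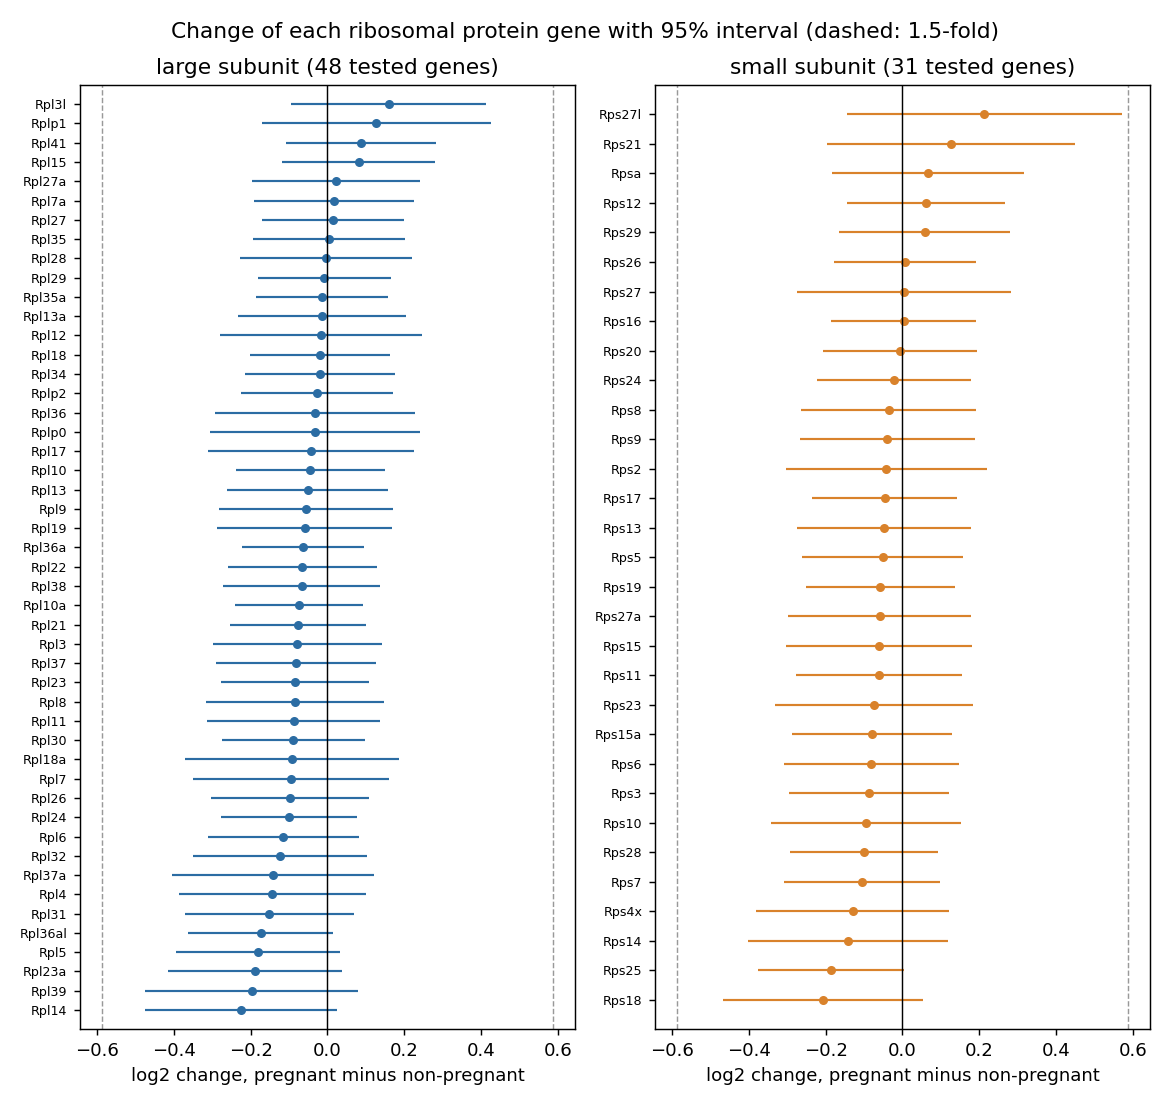
Log2 change of each tested ribosomal protein gene, pregnant minus non-pregnant (x axis; points, with 95% limma intervals as lines), for 48 large subunit genes (left) and 31 small subunit genes (right). The points run from -0.23 for Rpl14 to 0.21 for Rps27l, and every interval lies between the dashed lines at 1.5-fold.

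The whole family was shifted in single libraries. Taking for each member its deviation from its own mean over the 6 libraries, the median deviation on the log2 scale was -0.01, -0.05 and 0.16 without pregnancy and 0.02, 0.0019 and -0.10 at dpc8, for libraries 1, 2 and 3. Non-pregnant library 3 held the highest value of 67 of the 79 members (38 of 48 large, 29 of 31 small), against 35.8% of all tested genes. Within its own group it was above both others for 74 members, against 43.4% of all tested genes, by a median ratio of 1.146 to their mean (range 0.906 to 1.44). Pregnant library 3 held the lowest value of 48 members, against 21.1% of all tested genes, and was below both other pregnant libraries for 68, against 38.5%. The median SD of a member over the 6 libraries was 0.10 and fell to 0.06 once the median of the members in each library was subtracted. Part of that fall is built in, since the subtracted median came from the members themselves.

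**Figure D3:**
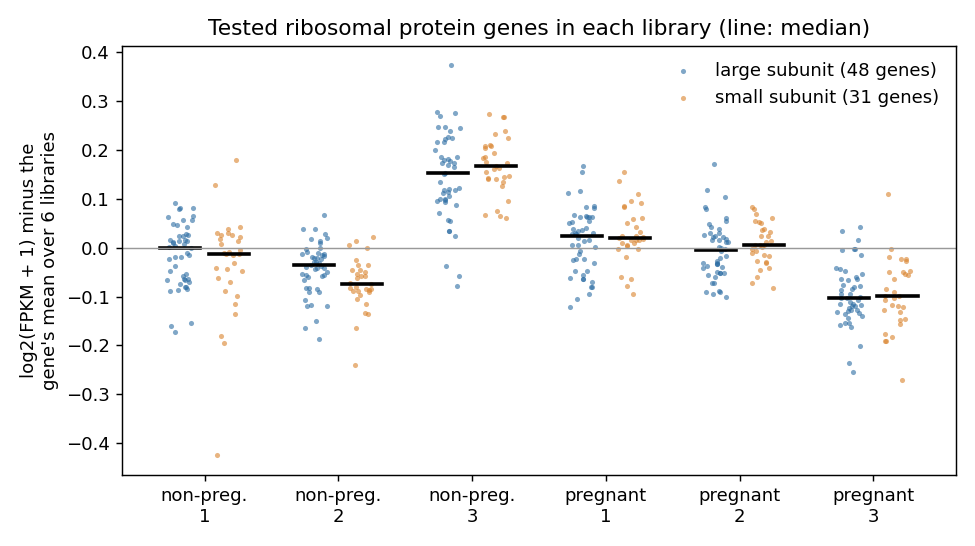
Each point is 1 tested ribosomal protein gene in 1 library, as log2(FPKM + 1) minus its mean over the 6 libraries (y axis), for the large (48) and small (31) subunit, with black lines at the medians. The cloud of non-pregnant library 3 sits above 0 and that of pregnant library 3 below it, for both subunits.

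Other measures also set non-pregnant library 3 apart. It held the most fragments of the 6 libraries, 35083751, and pregnant library 3 the fewest, 25047887. The part of this depth in the shift was not tested. The biliary markers of non-pregnant library 3 summed to 4896 FPKM and its macrophage markers to 57.1 FPKM, in both cases the lowest of the 6 libraries. Their part in the level of ribosomal protein mRNA was not tested. Ribosomal protein genes are short, with a median summed exon length of 1770 bases against 4414.5 for all tested genes. Non-members shorter than 2000 bases (1457 genes) deviated by a median of -0.03 in non-pregnant library 3 and of 0.02 in pregnant library 3, where the members stood at 0.16 and -0.10. The part of gene length in the shift was not tested.

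Among large subunit proteins the genes with the smallest p were Rpl36al, Rpl14, Rpl5 and Rpl23a, all lower in the pregnant group mean. Rpl14 (ENSMUSG00000025794; mm10 chromosome 9, 120571444 to 120574654) stood at 116, 108 and 132 FPKM without pregnancy and 105, 108 and 91.5 FPKM at dpc8, the largest decrease of the family in the log2 change (-0.23 ± 0.11, SE; limma adjusted p = 0.401). The groups did not overlap, although the lowest non-pregnant and the highest pregnant value, 108.03 and 107.7 FPKM, nearly met.

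Rpl5, which carries the 5S ribosomal RNA and, outside the ribosome, binds the p53 regulator MDM2, was at 44.7, 45.5 and 51.8 FPKM against 41.9, 44.6 and 38.4 FPKM (-0.18 ± 0.09, SE, as log2 change, with limma adjusted p = 0.417). Its highest pregnant and lowest non-pregnant values were 44.64 and 44.7 FPKM. Rpl23a, which lies near the tunnel exit where the signal recognition particle docks, was at 195, 182 and 221 FPKM against 177, 174 and 171 FPKM. The pregnant libraries were close together there and each was below all non-pregnant ones (-0.19 ± 0.10, SE, as log2 change, with limma adjusted p = 0.421). Rpl39, a small protein of the exit tunnel, was at 41.2, 42.6 and 56.02 FPKM against 40.2, 40.9 and 39.3 FPKM. Here non-pregnant library 3 alone stood high, and the other 5 lay within a few FPKM of each other. That library held the highest value of each of these genes, so leaving it out makes their decreases smaller by arithmetic. The changes were then -0.14 for Rpl14, -0.12 for Rpl5, -0.11 for Rpl23a and -0.06 for Rpl39.

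Rpl4, which reaches into the exit tunnel and was the third most abundant member, was at 321, 326 and 376 FPKM without pregnancy and 318, 316 and 291 FPKM at dpc8. The groups did not overlap, and the change of -0.14 ± 0.10 (SE) did not pass (limma adjusted p = 0.533). Without non-pregnant library 3 it was -0.07. Rpl35a was the lowest of the members outside the tissue-restricted paralogs, at 11.1, 10.9 and 9.99 FPKM against 10.5, 10.2 and 10.96 FPKM. It was one of 12 members not highest in non-pregnant library 3 and had its lowest value there.

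The stalk proteins recruit the GTPase factors of translation to the large subunit. Rplp0, the base of the stalk, stood at 213, 212 and 264 FPKM without pregnancy and 236, 229 and 207 FPKM at dpc8, and Rplp2 at 61.8, 62.04 and 70.3 FPKM and 65.9, 64.7 and 59.9 FPKM. Both followed the family, highest in non-pregnant library 3 and lowest in pregnant library 3. Rplp1, the most abundant member, stood at 425, 416 and 525 FPKM against 531, 499.5 and 455 FPKM, with all pregnant libraries above non-pregnant libraries 1 and 2. Its change of 0.13 ± 0.13 (SE) did not pass (limma adjusted p = 0.653). Leaving out non-pregnant library 3 gave 0.23, and leaving out library 2 of that group gave 0.07.

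Among small subunit proteins Rps25 had the smallest p of the whole family. Rps25 (ENSMUSG00000009927; mm10 chromosome 9, 44407139 to 44410427), a protein of the subunit head, stood at 44.8, 41.3 and 45.2 FPKM without pregnancy and 38.3, 41.07 and 35.8 FPKM at dpc8. All pregnant values lay below all non-pregnant ones, with pregnant library 2 just below non-pregnant library 2 (-0.19 ± 0.08, SE, as log2 change, with limma adjusted p = 0.377). Rps18, also of the head, was at 76.0, 63.6 and 77.3 FPKM against 64.1, 68.1 and 55.3 FPKM, and the groups overlapped (-0.21 ± 0.11, SE, as log2 change, with limma adjusted p = 0.431). Without pregnant library 3 the change of Rps18 was -0.12.

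Rps15, the most abundant small subunit member, stood at 462, 431 and 499.5 FPKM without pregnancy and 464, 444 and 426 FPKM at dpc8. Its groups overlapped over most of their range. Rps21 was at 228, 219 and 304 FPKM against 284, 273 and 254 FPKM, and Rpsa, also known as the laminin receptor, at 63.6, 68.6 and 82.9 FPKM against 77.8, 73.5 and 72.8 FPKM. For both, non-pregnant library 3 was the highest of all and the pregnant libraries lay between it and the other non-pregnant ones. Rps21 changed by 0.13 ± 0.14 (SE; limma adjusted p = 0.678), and without non-pregnant library 3 by 0.27 (limma adjusted p = 0.331), while without non-pregnant library 2 the change was 0.04.

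**Figure D4:**
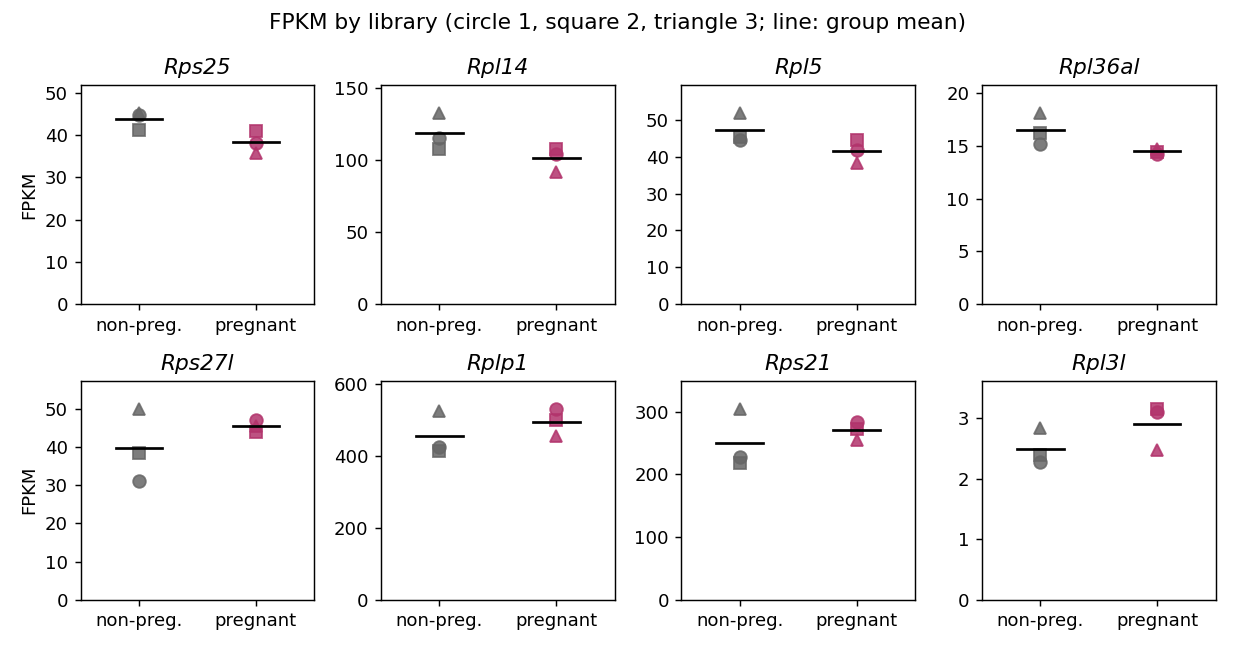
FPKM (y axes, from 0) of 8 ribosomal protein genes in each library, non-pregnant in grey and pregnant in magenta, with circle, square and triangle for libraries 1, 2 and 3 and lines at the group means. Rps25, Rpl14, Rpl5 and Rpl36al have lower pregnant means, while in Rps27l, Rplp1 and Rps21 the non-pregnant triangle (library 3) lies above the other non-pregnant points.

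Paralogs of ribosomal proteins differed widely in level from their parents. Rps27l, a paralog of Rps27 known as a p53 target, stood at 31.2, 38.4 and 49.9 FPKM without pregnancy and 47.1, 43.9 and 45.6 FPKM at dpc8, and had the largest increase of the family. The pregnant libraries were close together inside the upper part of the wide non-pregnant range (0.21 ± 0.15, SE, as log2 change, with limma adjusted p = 0.531). Rps27 itself stood at 246, 221 and 280 FPKM against 263, 261 and 225 FPKM. With limma array weights, which gave non-pregnant library 1 a weight of 3.68 and non-pregnant library 3 one of 0.205, Rps27l rose (0.47 ± 0.09, SE, as log2 change, with limma adjusted p = 0.0199) as the only member called, while 11.4% of all tested genes were called. Without non-pregnant library 3 at equal weights its change was 0.39 (limma adjusted p = 0.285), and without non-pregnant library 1 it was 0.05.

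Rpl36al, an expressed copy of Rpl36a, stood at 15.2, 16.2 and 18.1 FPKM without pregnancy and 14.3, 14.4 and 14.7 FPKM at dpc8. The groups did not overlap (-0.17 ± 0.08, SE, as log2 change, with limma adjusted p = 0.394), and without non-pregnant library 3 the change was -0.11. Its parent Rpl36a, at 38.6, 37.1 and 38.9 FPKM against 36.1, 35.8 and 37.7 FPKM, overlapped between groups. Rpl3l, the paralog of Rpl3 best known from heart and skeletal muscle, was detected at 2.27, 2.40 and 2.83 FPKM against 3.11, 3.15 and 2.48 FPKM, from 103 to 164 fragments per library, and Rpl3 stood at 129, 130.3 and 149.8 FPKM against 137, 124 and 125 FPKM. The change of Rpl3l, 0.16 ± 0.11 (SE; limma adjusted p = 0.513), was upward in the group mean, with overlap, and ran from 0.11 to 0.24 when each library was left out.

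The testis paralogs were at the floor. Rpl10l had 0 fragments in all 6 libraries, and Rpl39l had 0 in 5 and 2 in pregnant library 3. Their parents Rpl10, at 143 to 154 FPKM without pregnancy and 136 to 146 FPKM at dpc8, and Rpl39 were abundant.

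Levels of single members need care. Excluding Rpl3l, the tested members spread over a 44.8-fold range of mean FPKM, from 10.6 for Rpl35a to 475 for Rplp1. Across the 79 genes the mean FPKM fell with the summed exon length (Spearman rho = -0.51), and FPKM itself divides by that length. Processed pseudogenes are numerous in this family: in 78 of 81 members some 50-base stretches of a coding transcript recur exactly in another annotated gene, for a median of 60% of the stretches and in a median of 8 pseudogenes per tested member. Rps27 shared 98.6% of its stretches, Rpl5 93.8% and Rps18 86.7%, against 16.5% for Rpl4 and 0% for Rpl3l. How fragments that match several places were counted is not given in the sources used here, so the levels of such genes are uncertain. The 51 members with over 50% shared and the other 28 had median changes of -0.058 and -0.061, a difference that was not tested.

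Genes of the same pathway outside the family were read from lists of translation, ribosome assembly and their regulators. None of their members passed the test over all genes (limma; smallest adjusted p = 0.295), where 0.0876% of all tested genes did, and limma-voom also called 0. At an unadjusted p under 0.05 the lists held 0 of 6 (ribosomal protein genes outside the naming rule), 1 of 9 (elongation factors), 2 of 38 (initiation factors), 1 of 11 (other mRNAs with a pyrimidine tract), 3 of 64 (nucleolar assembly factors), 6 of 31 (mTORC1 and MYC control) and 2 of 77 (mitochondrial ribosomal proteins), against 13.4% of all tested genes.

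Initiation factors, which load the small subunit onto mRNA, lay below 0 for 34 of 38 genes, against 55.2% of all tested genes. Their median log2 change was -0.08, or -0.04 without non-pregnant library 3. In 30 of the 38 the highest library was non-pregnant library 3, against 35.8% of all tested genes. Eif3a, the scaffold of initiation factor 3, stood at 42.4, 37.5 and 48.7 FPKM without pregnancy and 34.0, 34.2 and 35.02 FPKM at dpc8, without overlap (-0.30 ± 0.10, SE, as log2 change, with limma adjusted p = 0.31). Eif4b, a helper of the cap-binding helicase whose mRNA has a pyrimidine tract, stood at 150.3, 132 and 165 FPKM against 130.4, 126 and 97.6 FPKM, also without overlap (limma adjusted p = 0.357).

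Elongation factors had a median change of -0.02, or -0.0071 without non-pregnant library 3. Of the 9, 5 lay below 0, against 55.2% of all tested genes. Eef2, which moves the ribosome along the mRNA, stood at 795, 785 and 761 FPKM without pregnancy and 734, 719 and 628 FPKM at dpc8. All pregnant values were lower (limma adjusted p = 0.495). Eif5a, which helps the ribosome through difficult peptide bonds, was higher in all pregnant libraries, at 60.7, 65.9 and 63.9 FPKM against 74.7, 70.3 and 75.7 FPKM (0.21 ± 0.08, SE, as log2 change, with limma adjusted p = 0.33). Among other mRNAs listed for a pyrimidine tract (median 0.01, or 0.02 without non-pregnant library 3) Nop53, a ribosome assembly factor, stood at 46.3, 43.6 and 57.7 FPKM against 42.4, 41.6 and 36.8 FPKM (limma adjusted p = 0.371).

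Nucleolar factors of ribosome assembly had a median change of -0.03, with 42 of 64 below 0, against 55.2% of all tested genes. Without non-pregnant library 3 the median turned to 0.0016. Nop2, a ribosomal RNA methyltransferase, stood at 20.9, 19.6 and 19.3 FPKM without pregnancy and 22.9, 23.4 and 24.9 FPKM at dpc8 (limma adjusted p = 0.298). Emg1, which also methylates ribosomal RNA, went the other way in the group means, at 9.37, 9.24 and 9.97 FPKM against 7.85, 8.20 and 7.40 FPKM (limma adjusted p = 0.295). Polr1a, the largest subunit of RNA polymerase I, stood at 16.8, 15.5 and 16.9 FPKM against 14.6, 14.03 and 14.3 FPKM. For each of these 3 genes, picked by smallest p, the groups did not overlap, and none passed the test. Over the whole list of 64, the groups did not overlap for 1 higher and 11 lower genes. Among all tested genes 9.9% were higher and 12.2% lower without overlap.

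The regulators of ribosome synthesis had a median change of -0.08, and of -0.04 without non-pregnant library 3. Of the 31, 24 lay below 0, against 55.2% of all tested genes. The list mixes drivers such as Myc with repressors such as Eif4ebp2, so its median and count give no direction of control. Myc, a transcription factor that drives genes of ribosome production, stood at 59.6, 69.1 and 67.7 FPKM without pregnancy and 75.4, 81.1 and 86.4 FPKM at dpc8, higher in each (0.30 ± 0.09, SE, as log2 change, with limma adjusted p = 0.301). Eif4ebp2, a repressor of cap-dependent translation that mTORC1 switches off, stood at 71.4, 65.6 and 86.6 FPKM against 58.1, 60.3 and 53.8 FPKM, lower in each (limma adjusted p = 0.301). Castor2, of the arginine-sensor family upstream of mTORC1, stood at 3.42, 2.77 and 3.62 FPKM against 2.66, 1.94 and 1.99 FPKM (limma adjusted p = 0.298).

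Mitochondrial ribosomal proteins, which belong to a separate ribosome, had a median change of -0.03. Of the 77, 46 lay below 0, against 55.2% of all tested genes. The highest library was non-pregnant library 3 for 46 of 77, against 35.8% of all tested genes. Without that library their median turned to 0.03, and with array weights to 0.06. Mrpl2 stood at 20.1, 20.7 and 21.7 FPKM without pregnancy and 16.9, 17.98 and 17.2 FPKM at dpc8, without overlap (limma adjusted p = 0.295). Mrpl34 stood at 17.8, 21.7 and 16.2 FPKM against 23.01, 23.3 and 21.1 FPKM, with overlap (limma adjusted p = 0.362).

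**Figure D5:**
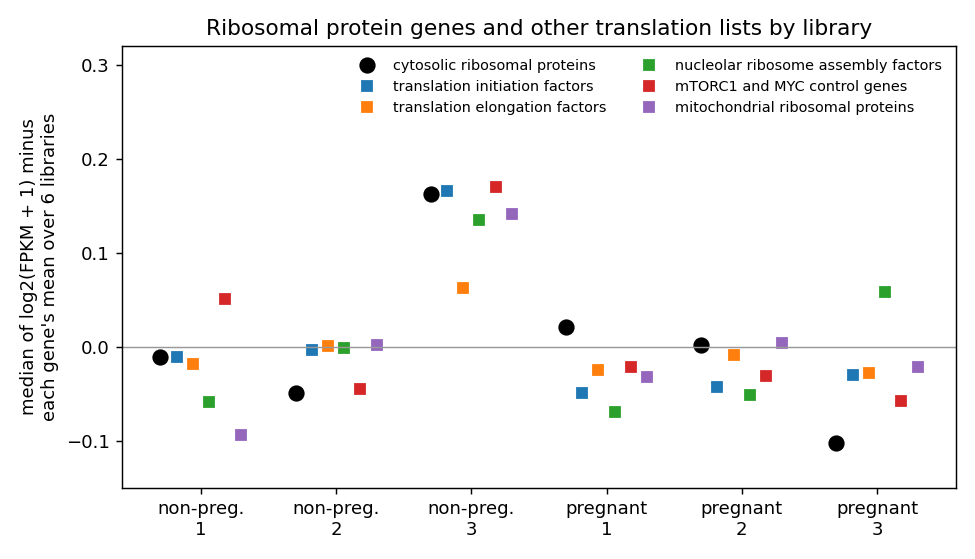
Median over each list of log2(FPKM + 1) minus each gene's mean over the 6 libraries (y axis), for the 79 tested cytosolic ribosomal protein genes (black circles) and 5 other translation lists (coloured squares), in each library (x axis). All 6 lists are highest in non-pregnant library 3, at 0.06 for elongation factors to 0.17 for mTORC1 and MYC control genes, and in pregnant library 3 they run from -0.10 for the cytosolic ribosomal proteins to 0.06 for nucleolar factors. Of the lists not drawn, the ribosomal protein genes outside the naming rule stood at -0.09 there and the other mRNAs with a pyrimidine tract at 0.01.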

How the data were processed

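Values came as FPKM, which the authors deposited for 21700 genes with 1 column per library (fragments per exon kilobase, corrected for depth). Cutadapt 3.4, STAR 2.7.9a, HTSeq 0.13.5, DESeq2 1.30.1 and mm10 are listed in the submitters' processing notes, without their roles. Per the labels' protocols, total RNA of sorted cells was depleted of ribosomal RNA. FPKM times the GENCODE vM21 union exon length was a whole multiple of 1 step per library for 98.5% of values above 0 (tolerance 0.01), which gave fragments for all 81 members. The depth in the deposited FPKM was 0.991 to 1.01 of the fragment total and the median ratio to the geometric mean was equal in all libraries, so the deposited values already carry a median-of-ratios scaling.

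The 11412 genes whose mean reached 1 FPKM were compared on log2(FPKM + 1) by limma 3.58.1 run in R 4.3.3, with a trended prior, two-sided p-values, Benjamini-Hochberg adjustment and a threshold of 0.05. Summaries used Python 3.11.15, pandas 2.3.3, scipy 1.17.1 and matplotlib 3.10.9. On simulated data for 11252 genes (pregnant against non-pregnant) the fit recovered 98% of 100 genes changed 2-fold and 100% of 100 changed 4-fold. Unchanged genes made up 4.35% of the calls. Changes as small as those of the members were not simulated. In the deposited values limma called 3 of the 9 tested macrophage markers, whose median log2 change was 2.52. Whether a recovery of 98% or 100% holds for the deposited libraries was not tested.

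The members, lists and tests were chosen with earlier results of these data known. Members are named where among the 6 smallest p, the 4 largest rises or falls, the 3 highest or lowest levels, stalk proteins and Rpsa, or paralog pairs; from other lists up to 3 genes by smallest p. Alternatives were other pseudocounts, filters, scalings, empirical Bayes settings, array weights, a replicate block, limma-voom and leaving out each library.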

Additional observations from a re-analysis of the deposited data

How the results depend on the processing

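Of the 79 tested members 0 were called in each alternative except array weights, which called 1 (Rps27l). The number of genes called over the whole table was 10, and it was 0 with no filter, 4 with a filter at a mean of 5 FPKM, 5 with robust empirical Bayes, 1301 with array weights, 1 with limma-voom and 0 to 133 when each library was left out. Over the other translation lists array weights called 14 genes, and every other alternative 0. The number of members below 0 was 63, between 38 (without non-pregnant library 3) and 69 (without pregnant library 1) when each library was left out, and 40 once the median of the members was made equal in all libraries, an alternative chosen after seeing the data that places about as many members on each side by construction. Scaling to summed FPKM gave 68, quantile normalisation 67 and scaling to fragment totals, also added later, 60. The members' median change ran from -0.10 to 0.0029 over all alternatives, and median-of-ratios factors changed nothing because the deposited values already carry that scaling. With the replicate block 13 genes and 0 members were called. Same-numbered libraries did not deviate together (correlations of 0.07, 0.02 and -0.14), so the numbers were not taken to pair them. Replicate numbers follow the sample titles, while the sample descriptions number non-pregnant library 3 as 4. Members had a median of 4720 fragments per library, so at that depth spread between libraries, not counting error, limits what could be seen. Rpl3l had only 103 to 164 fragments per library, and counting error weighs more there.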
